A study of Sus scrofa with 6 samples.

Results

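Calcineurin, its NFAT transcription factors, the calcineurin inhibitor RCAN1 and the calsarcins MYOZ1 and MYOZ2 were examined in longissimus dorsi, the long back muscle, of Wei and Yorkshire pigs. The set held 10 genes chosen by symbol: PPP3CA, PPP3CB, PPP3R1, NFATC1, NFATC2, NFATC3, NFATC4, RCAN1, MYOZ1 and MYOZ2. Of the 25322 genes in the deposited table, 7 carried a symbol of the set. A further 2, PPP3CA and NFATC1, had no symbol there and were found by gene ID, which made 9 genes with values. PPP3R1 was matched to no row and was not analysed here. The Wei group was 3 libraries from pigs fed commercial feed ad libitum and slaughtered at 90 kg. The Yorkshire group was 3 libraries from pigs kept in a similar way, with no slaughter weight in the labels. Titles of Wei libraries carry the code YH and those of Yorkshire libraries LWH, which the labels do not explain. They give no age, sex or treatment. Each library's description holds its own numbered code, and what the numbers stand for is not explained. Since the labels do not state that each library is a separate animal, each p-value reflects the spread among libraries only, which may be partly technical.

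Calcineurin is a phosphatase switched on by calcium and calmodulin. It is made of a catalytic subunit and a regulatory subunit, and it strips phosphates from NFAT proteins, which then enter the nucleus. In mouse muscle, sustained nerve activity keeps this route on in slow fibres, where NFATC1 is needed for slow contractile genes. RCAN1 binds and inhibits calcineurin and is itself an NFAT target, so its mRNA is often used as a readout of the route. Calsarcins tie calcineurin to alpha-actinin at the Z-disc. MYOZ2 is the calsarcin of heart and slow fibres, while MYOZ1 and MYOZ3 are those of fast fibres, as described in mouse. MYOZ3 was not in the set.

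The skeletal muscle genes ACTA1, CKM, DES, TTN, NEB and MYBPC2 were present in every library, as the tissue label says. Total counts ran from 15285197 to 22570075 in Wei libraries and from 17876646 to 27096747 in Yorkshire libraries. Wei replicate 1 stood apart: the summed level of those 6 muscle genes was 70748 CPM there (CPM is a count scaled to library size, here with TMM factors), against 108559 and 137507 CPM in the other Wei libraries and 118783 to 134816 CPM in Yorkshire. The skeletal actin gene ACTA1 took 3.77% of its counts, against 6.52% to 8.76% in the other 5 libraries. Yorkshire replicate 3 held more immune RNA, with a sum over 15 lymphocyte markers of 50.8 CPM, against at most 9.62 CPM in Wei and 12.4 and 15.6 CPM in the other Yorkshire libraries. Counts of the Y-linked genes DDX3Y and USP9Y summed to 4379 in Wei replicate 2, against 5 or fewer in the other 5 libraries. Such a level marks a male, so Wei replicate 2 came from another animal than Wei replicates 1 and 3. No Yorkshire library had it, and the part of sex in the breed comparison was not tested. In whole muscle, fewer cells of a type and less RNA per cell cannot be told apart.

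None of the 9 genes passed the test between the breeds. NFATC1 came nearest, with values about 1.41-fold higher in Wei, and NFATC4 stood at about 0.667 of its Yorkshire level. For the other 7 the ranges of Wei and Yorkshire libraries overlapped. Within 1 breed, MYOZ2 and RCAN1 spread over more than 2-fold, wider than any difference between the breed means of these genes. The test was edgeR's quasi-likelihood test with Benjamini-Hochberg adjustment over 13209 genes and a threshold of 0.05. It called 5.08% of all tested genes and 0 of these 9 (0 of the 7 with a table symbol), while DESeq2 and limma voom also called 0. At an unadjusted p under 0.05 there was 1 of 9, NFATC1, against 23.3% of all tested genes. The CPM ranges of the breeds did not overlap for 2 of 9, NFATC1 and NFATC4, against 29.6% of all tested genes. The median log2 fold change was 0.12 for the 9 genes and -0.023 for all tested genes.

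**Figure D1:**
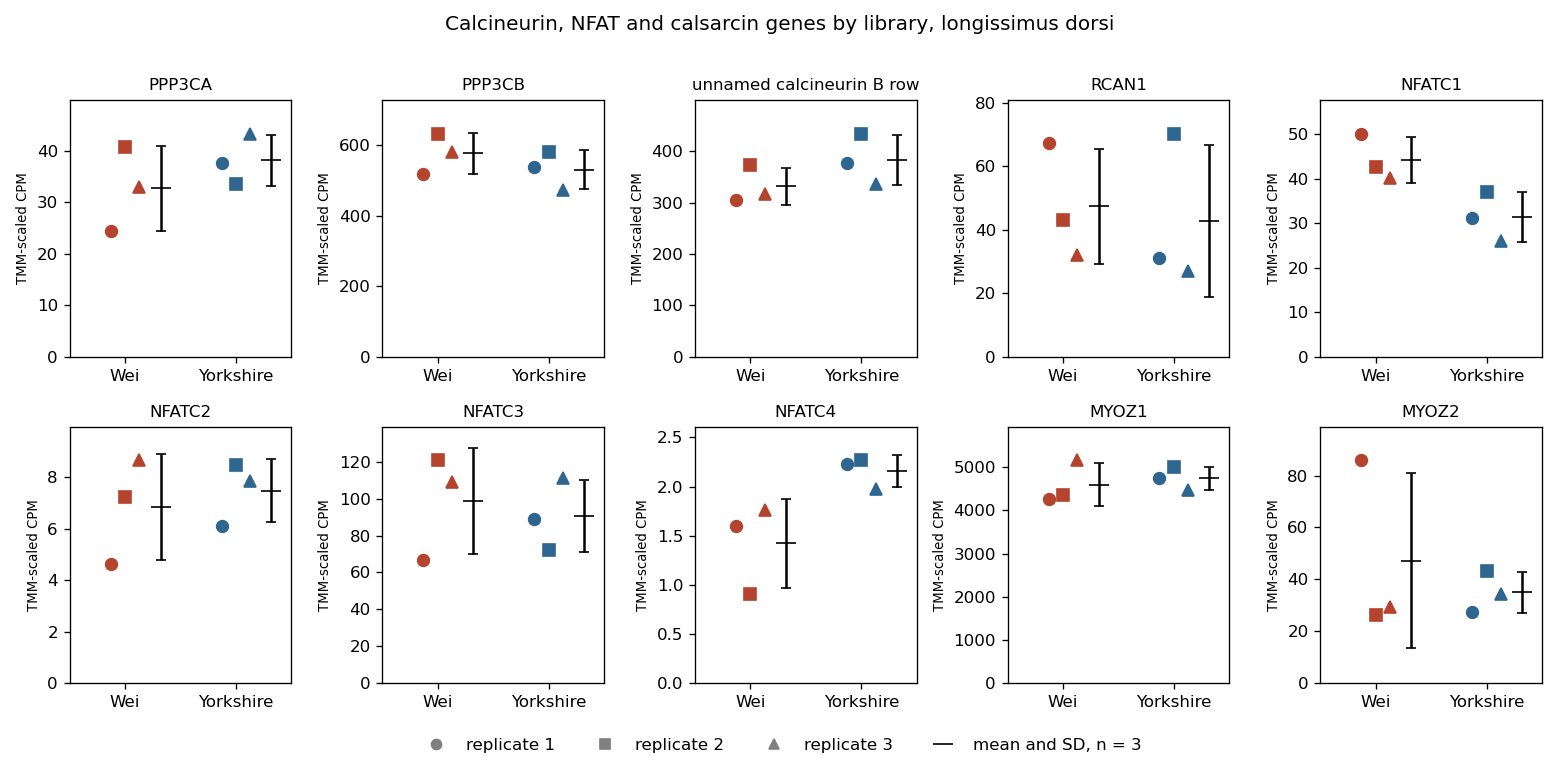
TMM-scaled CPM of each gene in the 3 Wei and 3 Yorkshire libraries, with the mean and SD beside the points and each y axis starting at 0. NFATC1 and NFATC4 are the panels in which the breeds do not overlap, and Wei replicate 1 is alone at 86.0 CPM in the MYOZ2 panel.

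The deposited FPKM values, which divide a count by gene length and library total, allow levels to be set side by side. MYOZ1 was far above all others, at 3237 ± 182 FPKM (SD, n = 3) in Wei and 3402 ± 205 FPKM in Yorkshire. Next came MYOZ2, at 149.7 ± 122 FPKM in Wei and 108 ± 27.0 FPKM in Yorkshire, and PPP3CB, at 129 ± 10.1 FPKM in Wei and 121 ± 10.6 FPKM in Yorkshire. The library ranges of those 2 genes overlapped, so their order was not resolved. The place of MYOZ2 also rests on a short length of 327 bases, against 4432 for PPP3CB. In CPM, MYOZ2 averaged 47.1 in Wei and 35.0 in Yorkshire, against 578 and 531 for PPP3CB. NFATC3 followed at 51.2 ± 11.7 FPKM in Wei and 48.8 ± 12.7 FPKM in Yorkshire, apart from its neighbours in each library. RCAN1, PPP3CA and NFATC1 lay between 10.3 and 31.8 FPKM with overlapping ranges. NFATC2 and NFATC4 were the least abundant, at 0.682 to 1.14 FPKM and 0.288 to 0.745 FPKM over the 6 libraries, and NFATC2 was the higher of them in each library.

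**Figure D2:**
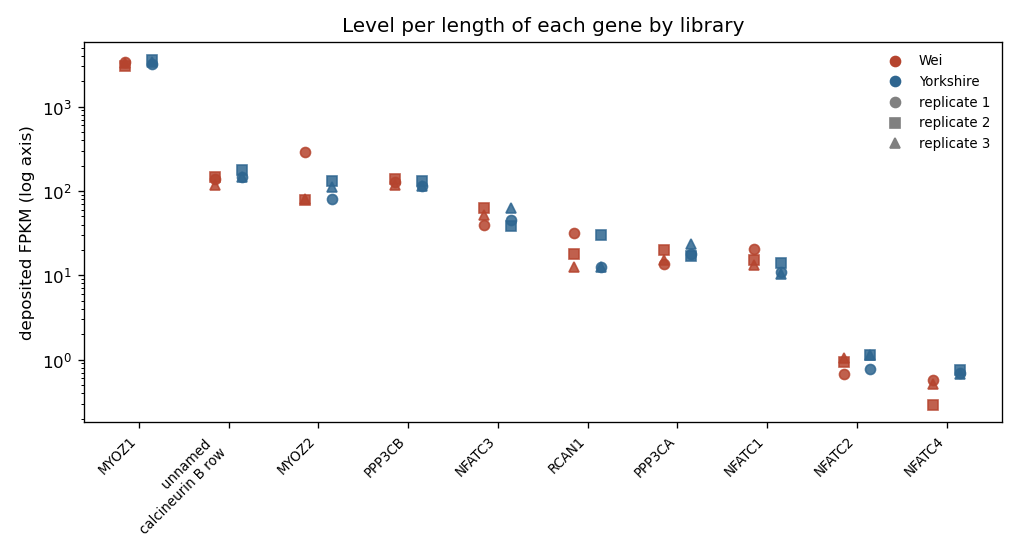
Deposited FPKM of each gene on a log axis, ordered by the mean over 6 libraries, with Wei left of Yorkshire. MYOZ1 lies at 3027 FPKM or more and NFATC4 at 0.745 FPKM or less, and the 3 genes RCAN1, PPP3CA and NFATC1 share a range.

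Neither PPP3CA nor PPP3CB passed the test, and the breeds overlapped in both. PPP3CB, the beta catalytic subunit (chromosome 14, 82376236 to 82430844 in Sscrofa10.2), stood at 518, 633 and 582 CPM in Wei libraries and 539, 582 and 473 CPM in Yorkshire libraries. Its values were among the steadiest of the set, with the ranges of the breeds largely on top of each other. The log2 fold change of Wei over Yorkshire was 0.12 ± 0.14 (SE; edgeR's quasi-likelihood test, adjusted p = 0.649), and its 95% interval covered fold changes of 0.867 to 1.36. PPP3CA, the alpha catalytic subunit (chromosome 8, 128461097 to 128798143), stood at 24.4, 40.8 and 32.9 CPM in Wei and 37.7, 33.5 and 43.3 CPM in Yorkshire. Wei replicate 1 was the lowest library. Its log2 fold change was -0.22 ± 0.20 (adjusted p = 0.525), with a 95% interval from -0.67 to 0.23. It ran from -0.40 without Wei replicate 2 to -0.04 without Wei replicate 1.

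PPP3CB was above PPP3CA in each library. PPP3CC, a further catalytic gene, was matched to no row, so its part in the catalytic mRNA is not known here. Per length, its level was 9.47, 6.93 and 7.90 times that of PPP3CA in Wei libraries and 6.39, 7.75 and 4.88 times in Yorkshire libraries. The log2 ratio of PPP3CA over PPP3CB averaged -3.01 ± 0.23 in Wei and -2.64 ± 0.34 in Yorkshire (SD, n = 3 each). The ranges overlapped, and the ratio is given without a test.

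The regulatory subunit, calcineurin B, holds the calcium-binding EF hands of the enzyme. A row with no symbol, ENSSSCG00000022362 on scaffold GL892315.2 (10274 to 35552), is described in the deposited table as the regulatory subunit of phosphatase 2B, another name for calcineurin. The table does not say which regulatory gene it is, and it was looked up after the table had been seen. It had 306, 373 and 317 CPM in Wei and 378, 434 and 336 CPM in Yorkshire. The Wei mean was the lower, but Wei replicate 2 lay above Yorkshire replicate 3, and the log2 fold change was -0.21 ± 0.15 (adjusted p = 0.435). Per length it stood at 134 ± 15.8 FPKM in Wei and 157 ± 18.9 FPKM in Yorkshire (SD, n = 3 each), against 129 ± 10.1 and 121 ± 10.6 FPKM for PPP3CB. Every Yorkshire library of this row lay above the Yorkshire range of PPP3CB, and in Wei the ranges of the 2 overlapped. The row named PPP3R2, the regulatory gene known from testis, had 1 count in Wei replicate 2, 1 in Yorkshire replicate 2 and 0 in the other 4 libraries.

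RCAN1 (chromosome 13, 207934802 to 207945091) varied widely within both breeds. It stood at 67.2, 43.0 and 31.9 CPM in Wei and 31.1, 70.2 and 27.1 CPM in Yorkshire. Each breed had a single high library, Wei replicate 1 and Yorkshire replicate 2, and the ranges overlapped almost fully. The log2 fold change was 0.15 ± 0.39 (adjusted p = 0.855), and its 95% interval ran from 0.599-fold to 2.05-fold. The sign was not stable: it was -0.19 without Wei replicate 1, -0.04 without Yorkshire replicate 1, 0.70 without Yorkshire replicate 2 and -0.09 without Yorkshire replicate 3. A breed difference in RCAN1 was not detectable at this precision.

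NFATC1 (chromosome 1, 161527669 to 161632553), the NFAT factor linked to slow genes in mouse, stood at 50.1, 42.6 and 40.2 CPM in Wei and 31.1, 37.1 and 26.0 CPM in Yorkshire. Every Wei library was above every Yorkshire library, although the lowest Wei and highest Yorkshire values were close. The log2 fold change was 0.50 ± 0.16, a 1.41-fold difference with a 95% interval of 1.09 to 1.83 (unadjusted p = 0.0147). It did not pass adjustment (edgeR's quasi-likelihood test, adjusted p = 0.113; 0.0901 to 0.205 over the alternatives with all libraries). Over the fits that left out 1 library the log2 fold change ran from 0.38 to 0.63.

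NFATC3, a further calcineurin-dependent NFAT (chromosome 6, 25836326 to 25877196), stood at 66.6, 121 and 109 CPM in Wei and 89.2, 72.0 and 111 CPM in Yorkshire. The breeds covered the same range and the log2 fold change was 0.12 ± 0.24 (adjusted p = 0.805), turning to -0.04 without Wei replicate 2 and -0.02 without Yorkshire replicate 2. NFATC2, the NFAT best known from T cells (chromosome 17, 59183330 to 59332006), stood at 4.61, 7.22 and 8.66 CPM in Wei and 6.10, 8.46 and 7.83 CPM in Yorkshire. Its log2 fold change was -0.12 ± 0.25 (adjusted p = 0.81) and ran from -0.33 to 0.10 over the fits that left out 1 library, with 0.10 without Wei replicate 1. The part of the lymphocyte markers, highest in Yorkshire replicate 3, in the NFATC2 values was not tested.

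NFATC4 (chromosome 7, 80189872 to 80200311) rested on few reads, with 27, 14 and 36 counts in Wei and 57, 41 and 54 in Yorkshire. Scaled, these were 1.6, 0.91 and 1.76 CPM in Wei and 2.23, 2.27 and 1.97 CPM in Yorkshire. All Wei libraries were below all Yorkshire libraries. This gave a log2 fold change of -0.58 ± 0.31, with a 95% interval from -1.28 to 0.11 (adjusted p = 0.29), and it ran from -0.77 to -0.35 over the fits that left out 1 library, with -0.35 without Wei replicate 2, the lowest library. The summed fibroblast markers, 7 of 8 found and 1 of these called lower in Wei, ran from 541 to 1536 CPM in Wei and from 2016 to 3341 CPM in Yorkshire, and their part in the NFATC4 values was not tested.

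NFATC3 had the largest share of the NFAT transcripts per length. The shares rest on the lengths implied by FPKM, 1886 bases for NFATC3, 2706 for NFATC1, 7479 for NFATC2 and 3077 for NFATC4. In plain counts the gap was smaller, with 1125 for NFATC3 and 847 for NFATC1 in Wei replicate 1, where they were closest. It made up 64.2%, 79.0% and 77.7% of the summed FPKM of the 4 NFATC genes in Wei, and 78.4%, 71.0% and 83.9% in Yorkshire. NFATC1 made up 33.7%, 19.4% and 20.0% in Wei and 19.0%, 25.5% and 13.7% in Yorkshire. NFATC2 and NFATC4 together added only a few percent in any library. The share of NFATC1 was highest in Wei replicate 1, while those of the other Wei libraries lay inside the Yorkshire range. The log2 ratio of NFATC3 over NFATC1 averaged 1.64 ± 0.61 in Wei and 2.05 ± 0.57 in Yorkshire (SD, n = 3 each).

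MYOZ1, a fast-fibre calsarcin (chromosome 14, 82571969 to 82579806), was the most abundant and most even gene of the set. It stood at 4256, 4364 and 5166 CPM in Wei and 4749, 5005 and 4475 CPM in Yorkshire. The highest of the 6 libraries was 1.21 times the lowest, and the breeds overlapped. Between breeds, the log2 fold change was -0.05 ± 0.16 (adjusted p = 0.891), with a 95% interval of 0.754 to 1.25 as a fold change. MYOZ1 lies 141 kb from PPP3CB on chromosome 14, with USP54 as the single annotated gene between them in Sscrofa10.2.

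MYOZ2, the slow-fibre calsarcin, had 86.0, 26.1 and 29.2 CPM in Wei and 27.6, 43.1 and 34.2 CPM in Yorkshire. Wei replicate 1 was at 3.3 times the lowest Wei library, and the other Wei libraries lay near the lower end of the Yorkshire range. The log2 fold change was 0.43 ± 0.43 (edgeR's quasi-likelihood test, adjusted p = 0.581), and it turned to -0.33 (adjusted p = 0.418) without Wei replicate 1. The table's model of MYOZ2 spans only 1461 bases on chromosome 8 (112388715 to 112390175), and the length implied by its FPKM is 327 bases, against 1404 bases for MYOZ1. Reads outside that model are not in the count, so the MYOZ2 level per length is less certain than the others. On that scale MYOZ1 was 11.5, 39.0 and 41.3 times MYOZ2 in Wei and 40.0, 27.0 and 30.5 times in Yorkshire.

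Of the 9 genes, 6 had a 95% interval within 2-fold in either direction: PPP3CA, PPP3CB, NFATC1, NFATC2, NFATC3 and MYOZ1. For RCAN1, NFATC4 and MYOZ2 a 2-fold difference between breeds was not excluded by the interval.

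**Figure D3:**
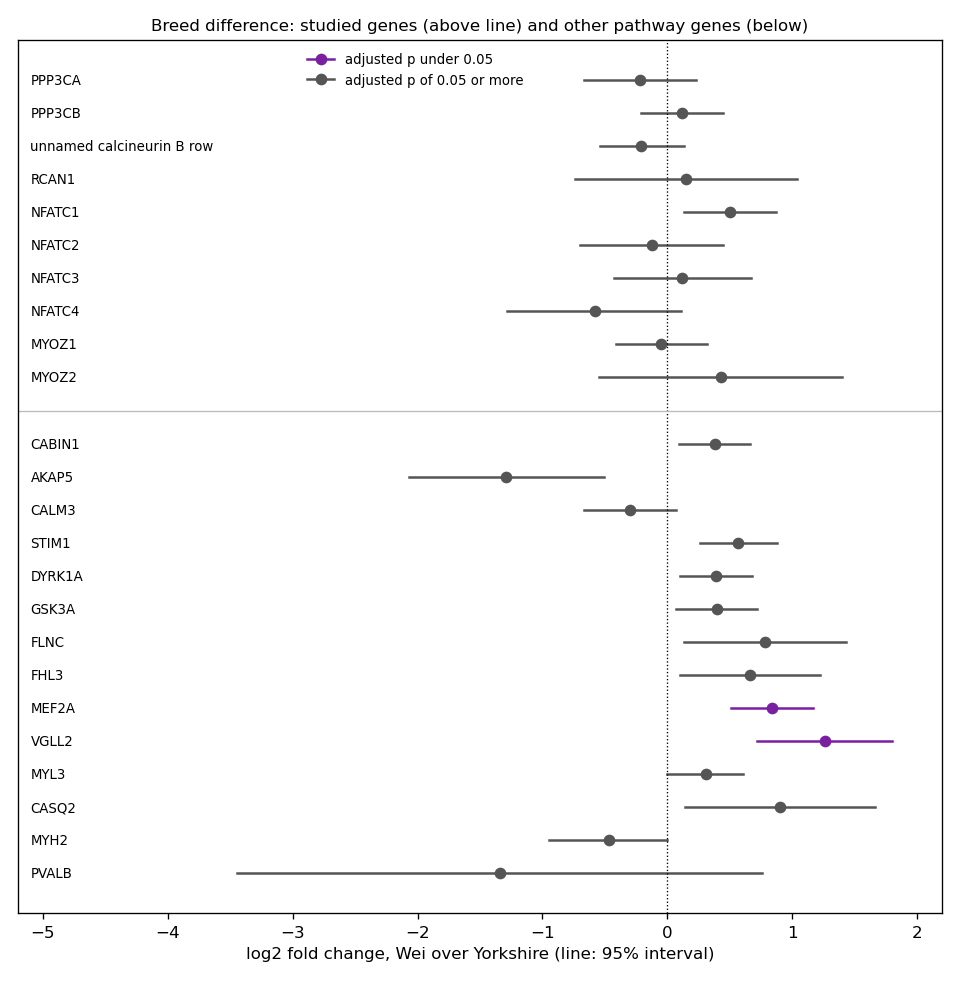
Log2 fold change of Wei over Yorkshire with its 95% interval, for the studied genes and the unnamed calcineurin B row above the line and for other pathway genes below it. Of those shown, MEF2A (0.84) and VGLL2 (1.26) passed an adjusted p of 0.05, while NFATC1 (0.50) missed it.

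Within each breed, 5 of the 9 genes had their extreme value in the same libraries. NFATC1, RCAN1 and MYOZ2 were highest in Wei replicate 1 among Wei libraries and in Yorkshire replicate 2 among Yorkshire libraries. PPP3CA and NFATC3 were lowest in those same 2 libraries. Over all tested genes, 10.1% were highest in both libraries and 11.0% lowest in both, so 3 and 2 of 9 are small counts, and they were noticed after the values were seen. Across all tested genes the deviations of Wei replicate 1 and Yorkshire replicate 2 from their breed means correlated at -0.024, a description over genes that are not independent. Wei replicate 1 was also the library with the low muscle gene sum, while Yorkshire replicate 2, at 119626 CPM, was not, and the part of this sum in the pattern was not tested.

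**Figure D4:**
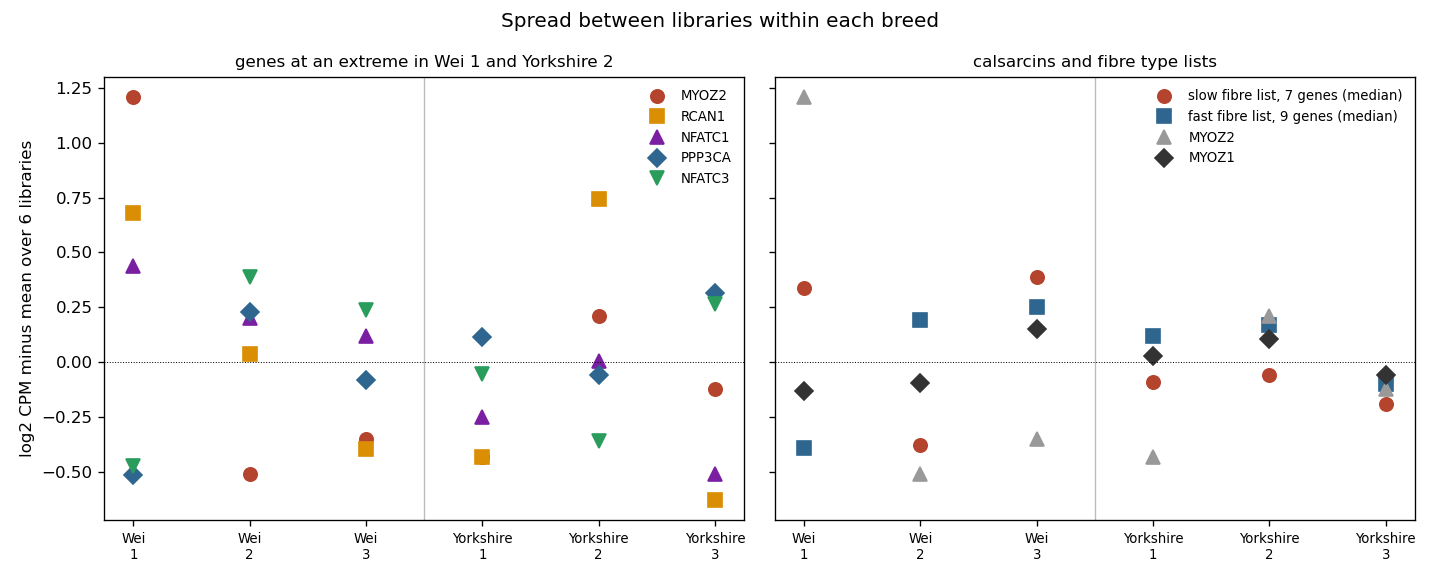
Log2 CPM of each gene minus its mean over the 6 libraries, for the 5 genes with shared extreme libraries on the left and for MYOZ1, MYOZ2 and the medians of the slow and fast fibre lists on the right. MYOZ2, RCAN1 and NFATC1 are high in Wei replicate 1, where the fast list is at -0.39 and the slow list at 0.34.

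The contractile and calcium-handling genes of the slow and fast fibre lists were not called in either direction. These lists hold fibre type genes and were not chosen as targets of calcineurin or NFAT. Of 11 slow fibre genes, 7 were found and tested and 0 passed, against 5.08% of all tested genes. The unadjusted p was under 0.05 for 2 of them, against 23.3% of all tested genes. Their median log2 fold change was 0.29. All 7 had a positive fold change, against 6312 of 13209 tested genes, but genes of 1 fibre type are not independent. MYH7, the slow myosin heavy chain, named after its values were seen, was at 0.48 ± 0.24 (edgeR's quasi-likelihood test, adjusted p = 0.264), and the breeds overlapped. MYL3, a slow myosin light chain, was at 0.31 ± 0.13 (adjusted p = 0.21) and CASQ2, the calcium store protein of heart and slow muscle, at 0.90 ± 0.33 (adjusted p = 0.153). CASQ2 passed without Wei replicate 2, at 1.21 (adjusted p = 0.0457). Of 11 fast fibre genes, 9 were tested and 0 passed, with 0 at an unadjusted p under 0.05 and a median of -0.08. MYH2, a myosin heavy chain of fast oxidative fibres whose reads can be confused with those of its near-identical neighbours, was at -0.47 ± 0.21 (adjusted p = 0.217). PVALB, the calcium buffer of fast fibres, was at -1.34 ± 0.92 (adjusted p = 0.413), with 5 counts in Wei replicate 1 and 239 to 1078 in the others.

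Library by library, MYOZ2 and the slow fibre list did not move as a unit. Centred on each gene's own mean, the median log2 CPM of the slow list was 0.34, -0.38 and 0.39 in Wei replicates 1 to 3 and -0.09, -0.06 and -0.19 in Yorkshire replicates 1 to 3. Both were high in Wei replicate 1 and low in Wei replicate 2, but Wei replicate 3 had the highest slow list and only 29.2 CPM of MYOZ2. The fast list was at -0.39, 0.19 and 0.25 in Wei and 0.12, 0.17 and -0.10 in Yorkshire, lowest in Wei replicate 1, while MYOZ1 was at 4256 CPM there, 1.21 times below its highest library.

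Genes that bind or restrain calcineurin showed no call: 0 of 8 tested passed, against 5.08% of all tested genes. There were 2 at an unadjusted p under 0.05, against 23.3% of all tested genes, and the median log2 fold change was -0.18. CABIN1, a nuclear inhibitor of calcineurin, had 71.4, 64.0 and 56.5 CPM in Wei and 50.2, 48.9 and 48.8 CPM in Yorkshire, with a log2 fold change of 0.38 ± 0.13 (adjusted p = 0.121). AKAP5, a scaffold that holds calcineurin at membranes, had 28, 13 and 16 counts in Wei and 70, 42 and 80 in Yorkshire, with a log2 fold change of -1.29 ± 0.34 (adjusted p = 0.0682). Neither gene overlapped between breeds, which held for 3 of the 8 tested, against 29.6% of all tested genes. DESeq2 called AKAP5 lower in Wei (adjusted p = 0.0307).

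Upstream of calcineurin, 0 of 6 tested genes of calcium entry and calmodulin passed, against 5.08% of all tested genes. Only 1 had an unadjusted p under 0.05, against 23.3% of all tested genes, and the median log2 fold change was -0.11. STIM1, the calcium sensor that opens store-operated entry, had 61.9, 77.2 and 79.3 CPM in Wei and 48.2, 46.6 and 52.5 CPM in Yorkshire. It lay at the edge of the threshold at 0.57 ± 0.14 (adjusted p = 0.052). STIM1 passed in 4 of 14 alternatives: RLE scaling, no count filter, DESeq2, and without mitochondrial genes and ACTA1 (adjusted p = 0.0103 to 0.0488). In each fit that left out 1 library it missed the threshold (edgeR's quasi-likelihood test, adjusted p = 0.0534 to 0.169). CALM3, a calmodulin gene, was at -0.30 ± 0.16 (adjusted p = 0.303).

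Opposing kinases and partners of NFAT gave 0 of 16 calls, against 5.08% of all tested genes, with a median log2 fold change of 0.08. For 4 of the 16 the unadjusted p was under 0.05, near the share of 23.3% over all tested genes. DYRK1A and GSK3A, kinases that phosphorylate NFAT and so drive its export from the nucleus, were at 0.39 ± 0.13 (adjusted p = 0.113) and 0.40 ± 0.14 (adjusted p = 0.14). Both were higher in every Wei library than in any Yorkshire library. Ranges did not overlap for 5 of the 16 genes, against 29.6% of all tested genes. HOMER2, which competes with calcineurin for NFAT in T cells, was named after its values were seen: it was at -1.15 ± 0.41 (adjusted p = 0.14 with edgeR's quasi-likelihood test), with 85.3, 29.6 and 95 CPM in Wei and 175, 193 and 99.9 CPM in Yorkshire. DESeq2 called HOMER2 lower in Wei (adjusted p = 0.0267). FHL1, the last of the 4 and also named afterwards, was at 0.56 ± 0.24 (edgeR's quasi-likelihood test, adjusted p = 0.203).

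The Z-disc list, partners of MYOZ1 and MYOZ2 plus the calsarcin MYOZ3, gave 0 of 9 calls, against 5.08% of all tested genes. Its median log2 fold change was 0.28. Unadjusted p was under 0.05 for 2 of the 9, against 23.3% of all tested genes. FLNC, the muscle filamin, was at 0.78 ± 0.28 (adjusted p = 0.148) and FHL3, a LIM-domain protein of actin filaments, at 0.66 ± 0.24 (adjusted p = 0.156). The breeds overlapped in both, and DESeq2 called FLNC higher in Wei (adjusted p = 0.0352). MYOZ3, named after its values were seen, was at -0.47 ± 0.4 (edgeR's quasi-likelihood test, adjusted p = 0.508), and the breeds overlapped.

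Among 16 tested regulators of fibre type that act beside NFAT, MEF2A and VGLL2 rose in Wei and none fell, which is 2 of 16 genes, while over all tested genes 2.73% were called higher and 2.35% lower in Wei. At an unadjusted p under 0.05 there were 7 of 16, against 23.3% of all tested genes. Of these, MEF2C, a further MEF2 factor that was named after its values were seen, was the one lower in Wei, at -0.63 ± 0.26 (adjusted p = 0.192). Beside MEF2A and VGLL2, the others, also named afterwards, were HDAC9 (1.36), PROX1 (1.08), TBX15 (0.62) and HDAC5 (0.46). None of these others passed adjustment with edgeR's quasi-likelihood test (adjusted p = 0.0749 to 0.171). The median log2 fold change was 0.20, against -0.023 for all tested genes. MEF2A, a transcription factor that calcineurin is known to activate, had 290, 376 and 342 CPM in Wei and 206, 172 and 184 CPM in Yorkshire. Its log2 fold change was 0.84 ± 0.14 (edgeR's quasi-likelihood test, adjusted p = 0.0229). VGLL2, a skeletal muscle cofactor of TEAD factors, had 145, 77.2 and 118 CPM in Wei and 56.2, 46.8 and 38.8 CPM in Yorkshire, and its log2 fold change was 1.26 ± 0.24 (adjusted p = 0.0301). MEF2A missed the threshold without Wei replicate 3 (adjusted p = 0.0611), Yorkshire replicate 2 (0.103) or Yorkshire replicate 3 (0.075). VGLL2 missed it without Wei replicate 1 (adjusted p = 0.0644), Wei replicate 3 (0.0743), Yorkshire replicate 2 (0.111) or Yorkshire replicate 3 (0.0909).

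MYOZ2, RCAN1 and NFATC4 had the largest SD of log2 CPM over the 6 libraries, at 0.65, 0.59 and 0.46. The genes nearest to them were taken by the root mean square difference of log2 CPM over 6 libraries, each centred on its mean. For MYOZ2 these were EN2 (0.216), SIM1 (0.253) and CH242-366F10.1 (0.255). SIM1, a transcription factor gene, had 11.5, 5.72 and 4.75 CPM in Wei and 3.75, 6.75 and 6.49 CPM in Yorkshire. Its high value in Wei replicate 1 follows from its selection by likeness to MYOZ2 and is no separate observation. For RCAN1 they were BAIAP3 (0.212), GREB1L (0.242) and PPP1R3E (0.266), and for NFATC4 they were EMILIN1 (0.052), BLOC1S5 (0.063) and GSKIP (0.069). EN2, BAIAP3 and PPP1R3E had under 3 CPM in each library, so their profiles carry more counting error. NFATC4 itself lay at 0.91 to 2.27 CPM, so the same limit holds for its nearest genes despite their small distances.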

How the data were processed

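RNA sequencing libraries of longissimus dorsi were made with an Illumina TruSeq kit, per the labels' protocols. Tools named in the submitters' processing notes, with no role, are CASAVA (1.7), TopHat2 (2.0.9) and edgeR, and the build is Sscrofa10.2. For the read counter, annotation and strand, no setting is given in the sources used here, so reads of overlapping genes cannot be told apart. The authors deposited raw counts and FPKM per gene, per the file headers. In the 4854 genes whose counts all exceeded 200, the deposited FPKM equalled the count divided by library total and a whole number of bases per gene, within 1.0e-02 bases, and this length is the one quoted. Counts were tested with edgeR 4.0.16 in R 4.3.3 (filterByExpr, minimum count 10, TMM, breed only). Standard errors (SE) were taken from the fold change and its F statistic, as |log2 fold change| divided by √F. The alternatives used DESeq2 1.42.0 and limma 3.58.1. Of 9160 IDs without a symbol, 1774 were given one by ID.

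The genes and lists were chosen with earlier results of these data known. Named genes were the set itself, the called genes of each list or else the 2 with the smallest p, and the 3 nearest profiles of the 3 most variable genes. The test was checked on simulated counts with known changes and the same dispersion for every gene. It recovered 52% of 2-fold and 98% of 4-fold changes, and 3.23% of its calls were false. A 2-fold change could thus be missed. Genes with a wider spread, such as MYOZ2 (SE 0.43) and RCAN1 (SE 0.39), were not simulated, so these rates do not apply to them. Between libraries with the same replicate number, deviations from the breed means correlated at 0.14, -0.0066 and 0.022 over genes. Replicate numbers were therefore not taken as pairs.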

Additional observations from a re-analysis of the deposited data

How the results depend on the processing

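None of the 9 genes passed under any of the 14 alternatives. Without Wei replicate 1, NFATC2 (0.10), RCAN1 (-0.19), MYOZ1 (0.01) and MYOZ2 (-0.33) changed sign, as did NFATC3 without Wei replicate 2 (-0.04) or Yorkshire replicate 2 (-0.02) and RCAN1 without Yorkshire replicate 1 (-0.04) or 3 (-0.09). All of these had adjusted p far above 0.05 in each fit, so no direction is claimed for them. Over the fits that left out 1 library, NFATC2 ran from -0.33 to 0.10, NFATC3 from -0.04 to 0.35, RCAN1 from -0.19 to 0.70, MYOZ1 from -0.14 to 0.01 and MYOZ2 from -0.33 to 0.73. Over all genes, DESeq2 called 1273 in place of 671, the cause not being tested, and leaving out 1 library left 60 to 394, with fewer samples in each fit. DESeq2 called 1 gene each in the calcineurin-binding, calcium, NFAT kinase and Z-disc lists, where edgeR called 0. RLE scaling, no count filter and leaving out mitochondrial genes and ACTA1 each called 1 calcium gene. Leaving out 1 library gave 0 to 2 fibre type regulators and 0 to 1 slow fibre genes. The replicate block called 0 of the 9 genes and changed no call among the named genes; it moved MYOZ2 to 0.21. The genes found numbered 9, in place of 7, with symbols by gene ID. The breed differences in log2 level ratio were equal on the CPM scale, since gene length cancels in them. The median log2 fold change over all genes was -0.023 with TMM and between -0.042 and -0.012 with the other scalings. NFATC4, with 14 to 57 counts, and the short MYOZ2 model were limited by depth and annotation.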
